A study of Mus musculus with 8 samples.

Results

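The genes described here encode plasma membrane and lysosomal carriers of amino acids and small peptides. They were taken by symbol, ignoring case, from the solute carrier families SLC1, SLC3, SLC6, SLC7, SLC15, SLC36, SLC38 and SLC43, leaving out the cystine carrier Slc7a11. The rule found 68 of the 21757 gene symbols in the genotype table and, among protein-coding genes, 64 of the 60237 identifiers in the knockdown tables. Of the 68 mouse symbols, 65 are transporters, and the other 3 (Slc7a6os, Slc36a1os and Slc6a19os) matched the rule only because they are named for lying opposite a transporter gene. The human set held 63 transporters and SLC7A6OS, and 62 symbols were present in both sets.

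Polyadenylated RNA was counted per gene in 8 libraries from 2 separate experiments, with 2 libraries in each of 4 groups. In the genotype experiment, Ctnnb1-ex3 organoids were compared with wild-type (WT) organoids, both labelled as mouse small intestinal organoids, a culture of self-renewing epithelium. Ctnnb1-ex3 usually denotes a beta-catenin allele without exon 3, whose protein escapes degradation. The Ctnnb1-ex3 organoids were grown with Noggin and EGF alone, whereas the WT organoids were also given Wnt3a and R-spondin1, so that genotype and medium cannot be told apart. The labels used here give no Cre driver, strain, age or sex for either culture. In the knockdown experiment, libraries made after a short hairpin targeting Prmt1 (sh-Prmt1) were compared with those of a scrambled hairpin (sh-scramble). The knockdown libraries carry mouse labels, but all 60237 of their gene identifiers are human and 0 are mouse, so they are described by human symbols and the culture behind them is not established. Their medium is not separately given. Nothing states that replicates were separate cultures, so p-values cover no more than the spread among these libraries, part or all of it possibly technical.

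Amino acids reach the body across the gut epithelium in 2 steps. On the lumen side, sodium- and proton-coupled carriers such as the neutral amino acid carrier Slc6a19 and the peptide carrier Slc15a1 take them up, and on the blood side exchangers such as Slc7a7 and Slc7a8 let them out. Many SLC7 carriers are light chains that reach the membrane only when bound to a heavy chain, either Slc3a1 (rBAT) or Slc3a2 (4F2hc). Growing cells rely on another set, among them Slc1a5, Slc7a5 and the SLC38 family, for glutamine and essential amino acids, and carriers in the lysosome membrane such as Slc38a9 report amino acid supply to the kinase complex mTORC1.

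The Ctnnb1-ex3 libraries held 6015933 and 3683169 counts and the WT libraries 4631527 and 2951887, whereas the knockdown libraries held between 39608249 and 53193449 estimated counts. Levels are CPM, counts relative to library size, scaled by TMM. The CPM of 3 counts ranged from 0.499 to 1.02 over the genotype libraries and from 0.0564 to 0.0757 over the knockdown libraries. PRMT1 had 2.99 and 3.35 CPM in sh-Prmt1 libraries, against 37.0 and 34.2 CPM in sh-scramble libraries (edgeR log2 fold change -3.48, adjusted p = 1.04e-06). All 8 listed markers of intestinal epithelium were above the low-count filter in both experiments. Ctnnb1-ex3 replicate 2 stood apart by its leukocyte markers: the 8 genes summed to 5.11 and 62.2 CPM in Ctnnb1-ex3 replicates 1 and 2, against 6.68 and 8.37 CPM in WT replicates 1 and 2. The Gzma counts, for example, were 1 and 110 in Ctnnb1-ex3 libraries, against 1 and 1 in WT libraries. Every carrier call below kept its direction without that library. That fit leaves 1 Ctnnb1-ex3 library and takes its spread from the WT libraries alone, so a call kept there is a weak check. Any link between these markers and the carrier values was not tested.

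In the genotype experiment, carriers were called in both directions in Ctnnb1-ex3 organoids. Lower were 3 of 5 tested SLC6 carriers of intestinal amino acids, 3 of 6 SLC6 carriers of other substrates, both SLC3 heavy chains and 1 of 3 SLC15 peptide carriers, and higher were 3 of 5 cationic SLC7 carriers. Other families held both: of 6 SLC7 light chains 2 were higher and 4 lower, of 6 SLC1 carriers 3 were higher and 1 lower, of 6 SLC38 carriers 3 were higher and 1 lower, and of 2 SLC43 carriers 1 was higher and 1 lower. Differences between the families were not tested. Of the 68 symbols, 45 passed the low-count filter and 23, with no count above 24 in any library, did not. By edgeR's quasi-likelihood test at an adjusted p under 0.05, 12 of the 45 were higher and 16 lower in Ctnnb1-ex3 organoids, and 17 were not called. The called share was 62.2%, beside 40.8% of the 12976 genes tested; 20.3% of all tested genes were higher and 20.5% lower. The median log2 fold change was 0.16 over the 45 genes and 0.02 over all genes tested, with a range from -5.16 for Slc6a14 to 3.002 for Slc43a1. The filter's minimum was 10 counts in a library of median size, and 8 tested symbols reached it in both libraries of a single group only. Of these, 5 were called: Slc43a1 and Slc7a3, with Ctnnb1-ex3 as that group, and Slc6a14, Slc6a20a and Slc7a15, with WT. Each was high in that group, so its passing the filter rested at least in part on the group where it was high. In 36 of the 45 the libraries of the 2 groups did not overlap, beside 73.6% of all genes tested, so that this count is not a result about the carriers. The summed level of all 68 symbols was 2355 and 2203 CPM in Ctnnb1-ex3 libraries, against 3089 and 3191 CPM in WT libraries. In the authors' deposited table, 8 of the 68 were higher and 13 lower at an adjusted p under 0.05, among 4070 genes called of 21757.

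**Figure D1:**
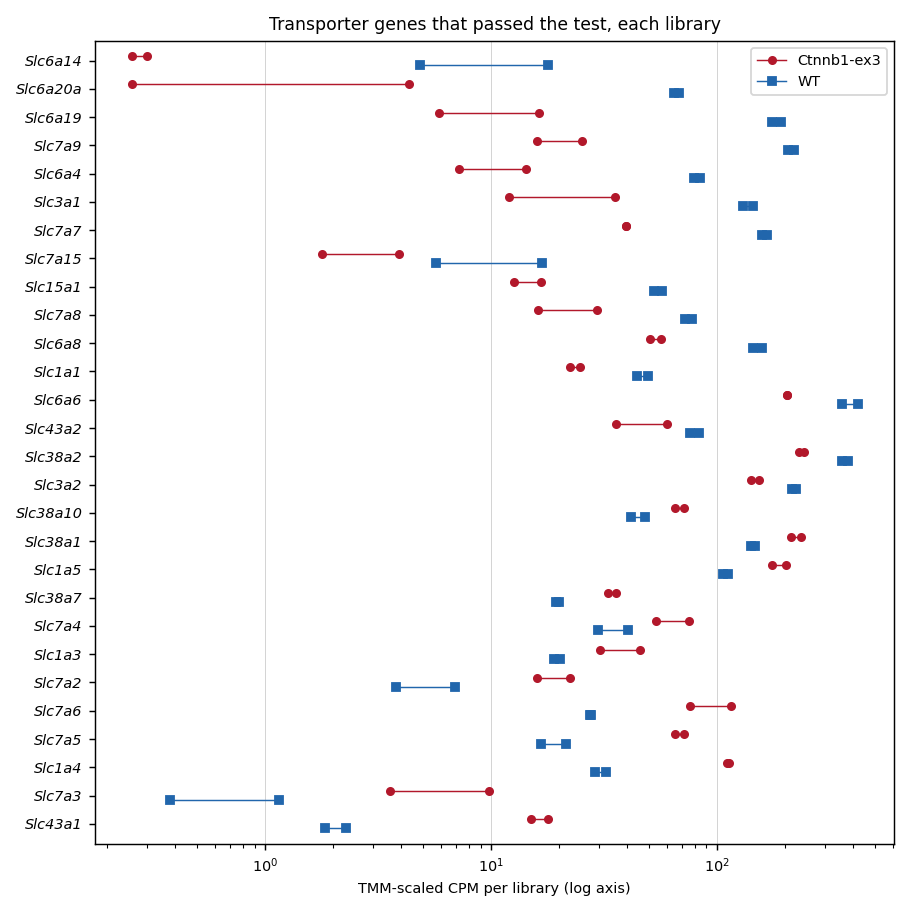
TMM-scaled CPM on a log axis for the 28 carrier genes that passed the test, from the most lowered gene at the top to the most raised at the bottom. Red circles are the 2 Ctnnb1-ex3 libraries and blue squares the 2 WT libraries, joined by a line within each group. The genes were chosen by the test, and no gene shown has overlapping groups. Of all genes tested, 73.6% had groups without overlap.

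Fewer carriers were called when either WT library was left out. Without WT replicate 1, 5 carriers were called higher and 11 lower, and without WT replicate 2, 5 were called higher and 12 lower; over all genes, calls fell to 2960 and 2634. In such fits the lone library of a group is assumed to vary like the others. With a Ctnnb1-ex3 library left out, the spread came from the WT libraries alone, and more genes were called. The WT libraries differed less from each other (chi-square over degrees of freedom 3.98, against 10.5 for Ctnnb1-ex3). Calls kept or gained in those fits are therefore a weak check. The 28 calls kept their direction under all 12 alternatives, and 14 also kept an adjusted p under 0.05: Slc1a4, Slc43a1, Slc7a5 and Slc7a6 among the higher, and Slc15a1, Slc3a1, Slc6a19, Slc6a20a, Slc6a4, Slc6a6, Slc6a8, Slc7a7, Slc7a8 and Slc7a9 among the lower.

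Of the SLC6 carriers that take up amino acids in the intestine, Slc6a19, Slc6a20a and Slc6a14 were lower. Slc6a19 (B0AT1), the main carrier of neutral amino acids at the brush border (chr13:73679745-73704865, minus strand, GRCm38 coordinates of GENCODE vM21, as for all positions of genes below), had 16.4 and 5.91 CPM in Ctnnb1-ex3 organoids, against 175 and 193 CPM in WT organoids. Both Ctnnb1-ex3 libraries lay far below both WT libraries, with an edgeR log2 fold change of -3.94 ± 0.32 (SE; adjusted p = 0.000189). Slc6a20a (SIT1), an imino acid carrier that takes up proline, had 4.36 and 0.257 CPM in Ctnnb1-ex3 organoids, against 68.2 and 64.7 CPM in WT organoids. Its log2 fold change was -4.62 ± 0.59 (edgeR adjusted p = 0.000901), and the Ctnnb1-ex3 replicates themselves differed widely, at 29 and 1 counts. Slc6a14, a broad carrier of neutral and cationic amino acids, had 2 and 1 counts in Ctnnb1-ex3 libraries, against 21 and 47 counts in WT libraries. The Ctnnb1-ex3 counts are within the floor of 3 per library, and the WT level was 34.3 times the Ctnnb1-ex3 level, with an exact 95% interval from 11.3 to 170.4 that covers counting error only (edgeR adjusted p = 0.00365). No value in the genotype table is below 1, so 1 may have been added to every count before deposit. With 1 taken from each count the ratio was 99.8, with an interval from 17.3 to 4002, so its size is not fixed by these counts.

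Leaving out single libraries moved these values. Without Ctnnb1-ex3 replicate 1, the log2 fold change was -4.96 for Slc6a19 and -7.85 for Slc6a20a, and without Ctnnb1-ex3 replicate 2 it was -3.92 for Slc6a20a. The value of Slc6a14 was -5.88 without WT replicate 1 and -3.99 without WT replicate 2, where it was no longer called (edgeR adjusted p = 0.0875). The nearest family members did not follow. Slc6a18, a further brush-border neutral amino acid carrier whose gene lies 1.72 kb from Slc6a19 on chromosome 13, had 7.06 and 8.73 CPM in Ctnnb1-ex3 organoids and 7.60 and 7.23 CPM in WT organoids (log2 fold change 0.08, edgeR adjusted p = 0.898). Slc6a20b, whose gene lies 2.21 kb from Slc6a20a on chromosome 9, had 7.96 and 3.34 CPM in Ctnnb1-ex3 organoids and 2.53 and 1.90 CPM in WT organoids (log2 fold change 1.35, edgeR adjusted p = 0.116), and was called only without Ctnnb1-ex3 replicate 2 (1.80). Slc6a20a and Slc6a20b are close paralogs and the counting tool is not given in the sources used here, so reads may have been divided between them.

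The peptide carrier Slc15a1 (PEPT1, chr14:121459621-121505252, minus strand), which takes up di- and tripeptides with protons, had 12.6 and 16.7 CPM in Ctnnb1-ex3 organoids, against 57.3 and 52.5 CPM in WT organoids. The groups were well separated, and the level was 3.79-fold lower in Ctnnb1-ex3 organoids (log2 fold change -1.92 ± 0.25, edgeR adjusted p = 0.00105). Of the other peptide carriers, Slc15a2, known from the kidney, had 23.0 and 5.14 CPM in Ctnnb1-ex3 organoids and 5.29 and 5.71 CPM in WT organoids, so that only Ctnnb1-ex3 replicate 1 stood high (log2 fold change 1.38, edgeR adjusted p = 0.139). Its value was -0.10 without Ctnnb1-ex3 replicate 1, and it was called without Ctnnb1-ex3 replicate 2 (2.07). The lysosomal histidine and peptide carrier Slc15a4 was at 33.5 and 36.7 CPM in Ctnnb1-ex3 organoids and 31.1 and 31.6 CPM in WT organoids (log2 fold change 0.16, edgeR adjusted p = 0.591).

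The b0,+ exchanger, which takes up cystine and cationic amino acids at the brush border, is made of the light chain Slc7a9 and the heavy chain Slc3a1, and both were lower. Slc7a9 (chr7:35448796-35466036, plus strand) had 25.4 and 15.9 CPM in Ctnnb1-ex3 organoids, against 207 and 219 CPM in WT organoids. It was 10.1-fold lower in Ctnnb1-ex3 organoids (log2 fold change -3.33 ± 0.21, edgeR adjusted p = 6.4e-05). Slc3a1 had 35.5 and 12.1 CPM in Ctnnb1-ex3 organoids, against 145 and 131 CPM in WT organoids, with no overlap. Its log2 fold change was -2.47 ± 0.36 (edgeR adjusted p = 0.0017) and -3.53 without Ctnnb1-ex3 replicate 1. Per kilobase of exon, Slc7a9 was the highest of all 68 symbols in WT organoids, at 79.7 CPM per kb, and stood at 7.72 CPM per kb in Ctnnb1-ex3 organoids. Exons of Slc3a1 overlap Prepl on the opposite strand; the Smart-seq2 method named in the labels keeps no strand in its standard form, so reads of the overlap cannot be assigned to either gene. The same holds for Slc6a20a with Ccr9, Slc6a20b with Sacm1l, Slc7a7 with Oxa1l, Slc7a4 with P2rx6, Slc1a1 with 4430402I18Rik, and Slc6a9 with B4galt2 and Ccdc24.

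The light chains of Slc3a2 described here divided by direction. Slc7a7 (y+LAT1), which exports cationic amino acids to the blood, had 39.8 and 39.6 CPM in Ctnnb1-ex3 organoids, against 159 and 167 CPM in WT organoids (log2 fold change -2.03 ± 0.13, edgeR adjusted p = 7.4e-05). Slc7a8 (LAT2), a basolateral exchanger of neutral amino acids, had 29.5 and 16.2 CPM in Ctnnb1-ex3 organoids, against 77.6 and 72.7 CPM in WT organoids (log2 fold change -1.69 ± 0.27, edgeR adjusted p = 0.0025). Both light chains of the export side were thus lower in each Ctnnb1-ex3 library than in each WT library. Slc7a5 (LAT1, chr8:121881150-121907694, minus strand), which brings leucine and other large neutral amino acids into growing cells, had 65.2 and 71.7 CPM in Ctnnb1-ex3 organoids, against 21.4 and 16.7 CPM in WT organoids. It was 3.54-fold higher in Ctnnb1-ex3 organoids (log2 fold change 1.82 ± 0.21, edgeR adjusted p = 0.000665). Slc7a6 (y+LAT2), a relative of Slc7a7 that exchanges arginine and glutamine, had 116 and 75.8 CPM in Ctnnb1-ex3 organoids, against 27.4 and 27.8 CPM in WT organoids (log2 fold change 1.80 ± 0.23, edgeR adjusted p = 0.000911).

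As a share of the summed level per kilobase of these 4 light chains, Slc7a5 and Slc7a6 made up 70.6% and 70.3% in Ctnnb1-ex3 libraries, against 15.6% and 14.1% in WT libraries. The sum itself was 60.8 and 51.1 CPM per kb in Ctnnb1-ex3 libraries and 75.3 and 75.4 CPM per kb in WT libraries. The heavy chain Slc3a2 had 142 and 153 CPM in Ctnnb1-ex3 organoids and 216 and 224 CPM in WT organoids (log2 fold change -0.57 ± 0.15, edgeR adjusted p = 0.0158). The groups of Slc3a2 did not overlap, but the call was lost without WT replicate 1 (-0.63, edgeR adjusted p = 0.103) and without WT replicate 2 (-0.56, edgeR adjusted p = 0.125). Slc7a15, a light chain for aromatic amino acids in the mouse that is a pseudogene in humans, had 3.91 and 1.80 CPM in Ctnnb1-ex3 organoids and 16.8 and 5.71 CPM in WT organoids. Its log2 fold change of -1.95 ± 0.66 (edgeR adjusted p = 0.0453) was -2.70 without Ctnnb1-ex3 replicate 1 and -0.999 without WT replicate 1 (edgeR adjusted p = 0.616). Slc7a10, Slc7a12 and Slc7a13 were under the filter.

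**Figure D2:**
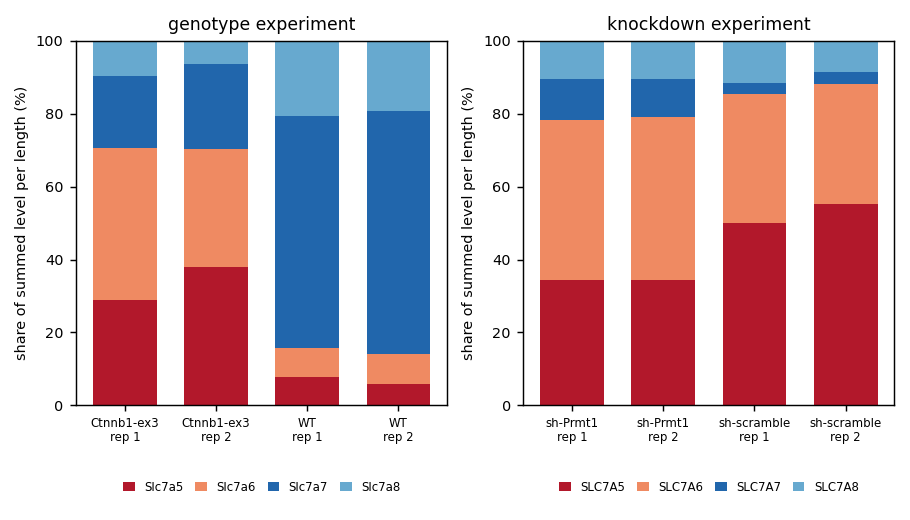
Share, in percent, of Slc7a5, Slc7a6, Slc7a7 and Slc7a8 in their own summed level, in every library. These are 4 of the light chains that pair with the heavy chain Slc3a2, and Slc7a10 and Slc7a11 are not in the sum. The left panel shows mouse genotype libraries, from CPM per kb of exon. The right panel shows human symbols of the knockdown libraries, from TPM. The red and orange parts, Slc7a5 and Slc7a6, make up 70.6% and 70.3% of the Ctnnb1-ex3 bars, against 15.6% and 14.1% of the WT bars.

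Cationic amino acid carriers of the SLC7 family were higher or not called. Slc7a2 (CAT2), an arginine carrier, had 22.4 and 15.9 CPM in Ctnnb1-ex3 organoids, against 6.91 and 3.80 CPM in WT organoids (log2 fold change 1.80 ± 0.45, edgeR adjusted p = 0.015). The call was lost without WT replicate 2 (1.46, edgeR adjusted p = 0.113). Slc7a3 (CAT3) had 65 and 14 counts in Ctnnb1-ex3 libraries, against 5 and 1 counts in WT libraries, with an edgeR log2 fold change of 2.99 ± 0.78 (adjusted p = 0.0177). Its value was 2.03 without Ctnnb1-ex3 replicate 1, 4.03 without WT replicate 1 (edgeR adjusted p = 0.0867) and 2.52 without WT replicate 2 (edgeR adjusted p = 0.173). Slc7a4, a relative whose substrate is not settled, had 75.6 and 54.0 CPM in Ctnnb1-ex3 organoids and 29.7 and 40.3 CPM in WT organoids (log2 fold change 0.91 ± 0.24, edgeR adjusted p = 0.0184). It was not called without WT replicate 1 (0.66, edgeR adjusted p = 0.136). The widely expressed arginine carrier Slc7a1 (CAT1) had 136 and 140 CPM in Ctnnb1-ex3 organoids and 108 and 126 CPM in WT organoids and was not called (log2 fold change 0.24, edgeR adjusted p = 0.207). Slc7a14 was not called either.

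Carriers of glutamine, serine and alanine of the SLC1 family were higher. Slc1a4 (ASCT1, chr11:20302180-20332713, minus strand), which exchanges serine, alanine and threonine, had 111 and 114 CPM in Ctnnb1-ex3 organoids, against 32.2 and 28.9 CPM in WT organoids. It was 3.64-fold higher in Ctnnb1-ex3 organoids (log2 fold change 1.86 ± 0.15, edgeR adjusted p = 0.000169), with replicates close together. Slc1a5 (ASCT2), the glutamine exchanger, had 175 and 202 CPM in Ctnnb1-ex3 organoids and 112 and 107 CPM in WT organoids (log2 fold change 0.78 ± 0.15, edgeR adjusted p = 0.00476). Its groups did not overlap, but the adjusted p was 0.0563 without WT replicate 1 (0.79) and 0.0538 without WT replicate 2 (0.73), again by edgeR. At 45.1 CPM per kb, Slc1a5 was the highest of the 68 symbols in Ctnnb1-ex3 organoids. The glutamate carriers went in opposite directions. Slc1a3 (EAAT1) had 45.7 and 30.6 CPM in Ctnnb1-ex3 organoids and 19.1 and 20.2 CPM in WT organoids (log2 fold change 0.97 ± 0.29, edgeR adjusted p = 0.0296), whereas Slc1a1 (EAAT3) had 22.4 and 24.9 CPM in Ctnnb1-ex3 organoids and 49.5 and 44.5 CPM in WT organoids (log2 fold change -0.997 ± 0.23, edgeR adjusted p = 0.0101). The Slc1a3 call was lost without Ctnnb1-ex3 replicate 1 (0.63), WT replicate 1 (0.90) or WT replicate 2 (0.99), and the Slc1a1 call without WT replicate 1 (-0.94). Slc1a2 and Slc1a7 were not called, and Slc1a6 was under the filter.

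The sodium-coupled neutral amino acid carriers of the SLC38 family differed by small amounts. Slc38a1 (SNAT1), a glutamine carrier, had 213 and 235 CPM in Ctnnb1-ex3 organoids, against 147 and 142 CPM in WT organoids (log2 fold change 0.63 ± 0.15, edgeR adjusted p = 0.012). Its neighbour Slc38a2 (SNAT2), which lies 44.5 kb away on chromosome 15 and is known to be induced when amino acids are scarce, had 232 and 243 CPM in Ctnnb1-ex3 organoids, against 360 and 382 CPM in WT organoids (log2 fold change -0.64 ± 0.16, edgeR adjusted p = 0.0155). The neighbours thus moved in opposite directions, with no overlap of groups in either, which also held for 73.6% of all genes tested. Slc38a7, which releases glutamine from lysosomes, had 35.8 and 33.1 CPM in Ctnnb1-ex3 organoids and 20.03 and 19.4 CPM in WT organoids (log2 fold change 0.80 ± 0.26, edgeR adjusted p = 0.0372). Slc38a10 had 71.7 and 65.2 CPM in Ctnnb1-ex3 organoids and 41.9 and 47.9 CPM in WT organoids (log2 fold change 0.62 ± 0.17, edgeR adjusted p = 0.0211). All 4 calls were lost when either WT library was left out. Without WT replicates 1 and 2 in turn the values were 0.63 and 0.59 for Slc38a1, -0.71 and -0.61 for Slc38a2, 0.80 and 0.77 for Slc38a7, and 0.49 and 0.70 for Slc38a10. The lysosomal arginine sensor Slc38a9 had 59.2 and 50.1 CPM in Ctnnb1-ex3 organoids and 60.3 and 49.1 CPM in WT organoids (edgeR adjusted p = 0.987). Slc38a6 was not called, and Slc38a3, Slc38a4, Slc38a5, Slc38a8 and Slc38a11 were under the filter, Slc38a5 with the table's lowest value of 1 in all 4 libraries.

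Slc43a1 (LAT3, chr2:84838850-84863594, plus strand), a facilitated carrier of large neutral amino acids, had the highest fold change of the set in this fit, close to that of Slc7a3. It had 15.03 and 17.98 CPM in Ctnnb1-ex3 organoids, against 1.84 and 2.28 CPM in WT organoids, or 100 and 70 counts against 8 and 6. The level was 8.01-fold higher in Ctnnb1-ex3 organoids (log2 fold change 3.002 ± 0.49, edgeR adjusted p = 0.0026), and the value was 2.40 with an offset for read density, chosen after seeing the data. Its relative Slc43a2 (LAT4), which lets essential neutral amino acids out across the basolateral membrane, had 60.0 and 35.7 CPM in Ctnnb1-ex3 organoids and 75.8 and 83.7 CPM in WT organoids (log2 fold change -0.71 ± 0.24, edgeR adjusted p = 0.0429). That call was lost without WT replicate 1 (-0.82) and without WT replicate 2 (-0.66). Slc43a3 was under the filter. Of the proton-coupled SLC36 carriers, Slc36a1, found on lysosomes and the brush border, had 52.9 and 26.2 CPM in Ctnnb1-ex3 organoids and 32.0 and 29.7 CPM in WT organoids (log2 fold change 0.37, edgeR adjusted p = 0.397), and had a value of -0.25 with Ctnnb1-ex3 replicate 1 left out. Slc36a4 had 5.26 and 2.83 CPM in Ctnnb1-ex3 organoids and 1.84 and 0.761 CPM in WT organoids (log2 fold change 1.56, edgeR adjusted p = 0.0918). Both were called without Ctnnb1-ex3 replicate 2 (0.77 and 1.89). Slc36a2 and Slc36a3 were under the filter.

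Among SLC6 carriers of other substrates, 3 of 6 tested were lower and 3 not called. Slc6a4, the serotonin carrier, had 14.3 and 7.19 CPM in Ctnnb1-ex3 organoids, against 79.7 and 84.1 CPM in WT organoids (log2 fold change -2.87 ± 0.30, edgeR adjusted p = 0.000401, and -3.51 without Ctnnb1-ex3 replicate 1). Slc6a8, the creatine carrier, had 56.8 and 50.9 CPM in Ctnnb1-ex3 organoids, against 159 and 144 CPM in WT organoids (log2 fold change -1.49 ± 0.14, edgeR adjusted p = 0.000276). Slc6a6, the taurine carrier, had 204 and 204 CPM in Ctnnb1-ex3 organoids, against 359 and 422 CPM in WT organoids (log2 fold change -0.93 ± 0.17, edgeR adjusted p = 0.00413). In each of the 3 genes the groups were apart, but so they were in the 3 not called and in 73.6% of all genes tested. The glycine carrier Slc6a9 had 15.2 and 15.2 CPM in Ctnnb1-ex3 organoids and 27.2 and 25.9 CPM in WT organoids and was not called (log2 fold change -0.81, edgeR adjusted p = 0.0585), although it was called when either Ctnnb1-ex3 library was left out (-0.82 without replicate 1, -0.81 without replicate 2). Slc6a2 and Slc6a7 were not called, and Slc6a3, Slc6a5, Slc6a11, Slc6a12 and Slc6a13 were under the filter.

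**Figure D3:**
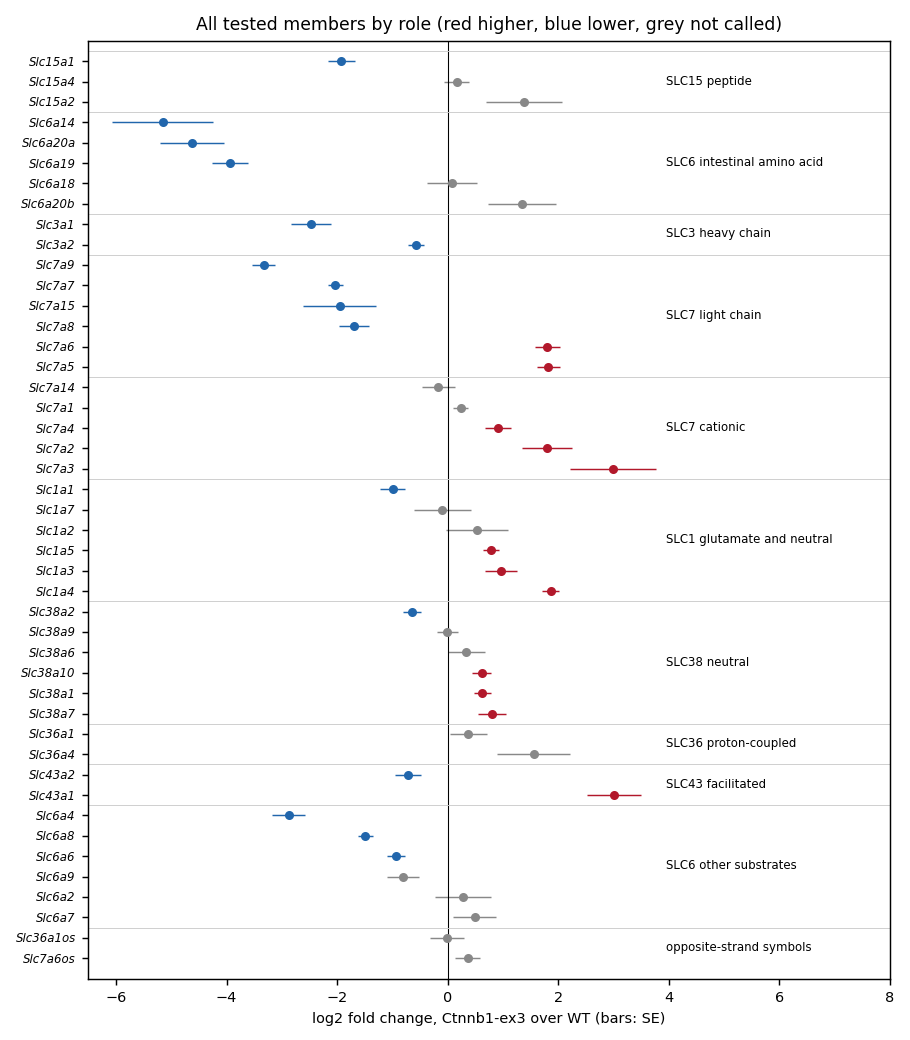
Log2 fold change of Ctnnb1-ex3 over WT organoids, with its SE as a bar, for the 45 symbols tested, grouped by role. Red symbols were higher, blue lower and grey not called; values run from -5.16 for Slc6a14 to 3.002 for Slc43a1.

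Per kilobase of exon, the order of the carriers differed between the groups. In Ctnnb1-ex3 organoids the highest were Slc1a5 (45.1 CPM per kb), Slc3a2 (41.8), Slc1a4 (28.6) and Slc38a2 (26.9). In WT organoids they were Slc7a9 (79.7 CPM per kb), Slc3a2 (62.3), Slc3a1 (60.6) and Slc7a7 (49.1). Slc3a2 was thus second in both orders, although its level was lower in Ctnnb1-ex3 organoids.

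Markers of differentiated enterocytes, the absorptive cells of the villus, moved with the lowered carriers. Of 10 listed enterocyte genes, 9 were lower in Ctnnb1-ex3 organoids (edgeR), beside 20.5% of all genes tested, and Lct was not called. The 10 genes summed to 1150 and 897 CPM in Ctnnb1-ex3 libraries, against 4306 and 5325 CPM in WT libraries. All 10 had a count in every library, but so did every gene, since the lowest value is 1. All 6 listed crypt base stem cell genes were higher, beside 20.3% of all genes tested. They summed to 1087 and 1285 CPM in Ctnnb1-ex3 libraries, against 346 and 369 CPM in WT libraries. In bulk libraries, fewer cells of a type and less RNA per cell cannot be told apart, and the part of cell composition in the carrier values was not tested. All-gene fold changes also ran with level: the median was 0.81 in the lowest decile of genes by mean CPM per kb, at 0.782 CPM per kb, and -0.47 in the highest decile, at 89.7 CPM per kb. With the read-density offset, fitted to this trend, 7 carriers were higher and 15 lower, and the calls of Slc1a3 (0.52), Slc38a10 (0.45), Slc38a7 (0.54), Slc7a2 (1.14), Slc7a3 (2.27), Slc38a2 (-0.41) and Slc3a2 (-0.24) were lost. Under the same offset, 6 of the 10 enterocyte genes were called lower.

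**Figure D4:**
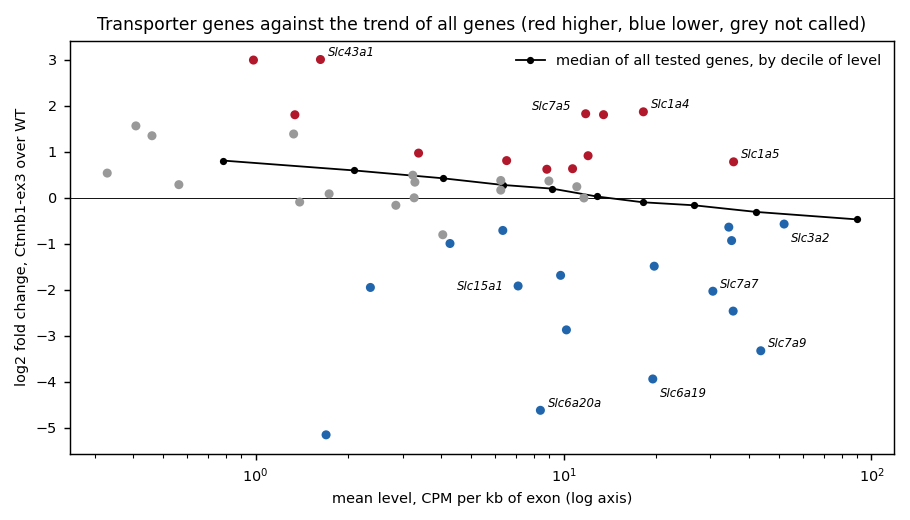
Log2 fold change of Ctnnb1-ex3 over WT organoids against mean level in CPM per kb of exon (log axis) for the tested symbols, red where higher, blue where lower and grey where not called. The black line joins the median log2 fold change of all tested genes in deciles of level, from 0.81 at the left to -0.47 at the right.

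Partners of intestinal carriers were lower where they could be tested. On a list of 11 partners and supports of intestinal amino acid uptake, 10 were tested and all 10 were lower in Ctnnb1-ex3 organoids by edgeR (median log2 fold change -1.15). Over all genes tested, 20.5% were lower. Dpp4 was near the threshold (-0.45, edgeR adjusted p = 0.0489) and was not called with DESeq2, limma-voom or upper-quartile factors. With the read-density offset, 8 were called lower. Slc16a10, a basolateral carrier of aromatic amino acids outside the families taken here, had 69.0 and 61.4 CPM in Ctnnb1-ex3 organoids, against 124 and 131 CPM in WT organoids (log2 fold change -0.96 ± 0.13, edgeR adjusted p = 0.00136). The aminopeptidase Enpep had 44.6 and 21.3 CPM in Ctnnb1-ex3 organoids, against 264 and 280 CPM in WT organoids (log2 fold change -3.01 ± 0.29, edgeR adjusted p = 0.000322, and -3.69 without Ctnnb1-ex3 replicate 1). With WT replicate 1 or WT replicate 2 left out, 6 of the genes were called lower, and with Ctnnb1-ex3 replicate 2 left out, 1 was called higher. That gene was Tmem27 (collectrin), which carries Slc6a19 to the surface in the kidney and was the listed partner under the filter, with 48 and 5 counts in Ctnnb1-ex3 libraries, against 8 and 1 counts in WT libraries.

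Enzymes of amino acid metabolism were mixed, with 6 higher and 7 lower of 22 tested and a median log2 fold change of -0.10. Over all genes tested, 20.3% were higher and 20.5% lower. Ass1, which joins citrulline and aspartate on the way to arginine, had 26.4 and 14.9 CPM in Ctnnb1-ex3 organoids, against 4.14 and 3.80 CPM in WT organoids (log2 fold change 2.37 ± 0.46, edgeR adjusted p = 0.00548). Arg2, the mitochondrial arginase, had 45.2 and 22.4 CPM in Ctnnb1-ex3 organoids, against 288 and 361 CPM in WT organoids (log2 fold change -3.23 ± 0.30, edgeR adjusted p = 0.000281, and -3.87 without Ctnnb1-ex3 replicate 1). Glul, which makes glutamine, was higher (log2 fold change 1.18 ± 0.19, edgeR adjusted p = 0.00272). Asns, which makes asparagine, was not called (-0.19, edgeR adjusted p = 0.384). On a list of 32 genes of amino acid sensing and mTORC1, 30 were tested, with 6 higher and 10 lower (median -0.17). The numbers higher and lower were 8 and 5 with upper-quartile factors, and 2 and 6 with the read-density offset. With WT replicate 1 left out these were 3 and 6, and with WT replicate 2 left out, 1 and 6.

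Promoter sequence was available in RefSeq (GRCm38.p6) for 49 of the 68 mouse symbols, as 250 bases before and 50 after a start site, in 70 promoters. They were searched on both strands for TGATGNAA, a core of the amino acid response element bound by ATF4, for the E-box CACGTG, bound by MYC and by TFEB, for the TCF/LEF motif ATCAAAG, and for motifs of HNF4 (CAAAGTCCA) and HNF1 (GTTAAT, any base, ATT). No motif overlaps another in the sequences printed. Across 32851 promoters of the same length, 3.97% held TGATGNAA, 7.15% held the E-box, 3.73% the TCF/LEF motif, 0.475% the HNF4 motif and 0.399% the HNF1 motif. Of the 70 promoters of these symbols, 4 held TGATGNAA, 8 the E-box, 4 the TCF/LEF motif, 1 the HNF4 motif and 0 the HNF1 motif. Counted by symbol, these were 3, 8, 4, 1 and 0 of the 49. The E-box was in 2 of the 6 higher symbols with a promoter, in 0 of the 14 lower, in 3 of the 14 not called and in 3 of the 15 under the filter. In the same order, TGATGNAA was in 1, 1, 0 and 1, the TCF/LEF motif in 1, 0, 3 and 0, and the HNF4 motif in 0, 1, 0 and 0. The called carrier with the TCF/LEF motif, Slc38a10, holds it on its other strand 10 bases before the start and is not printed. Differences between these groups were not tested. A match is a description of letters and does not show binding. The promoters below are those of called carriers that hold TGATGNAA, the E-box or the HNF4 motif, with the match in capitals, printed along the gene's strand.

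The first is from Slc1a4 (chr11:20332664-20332963, minus strand) and holds TGATGNAA on its other strand 4 bases before the start. The second, from Slc7a7 (chr14:54417895-54418194, minus strand), holds it at 141 and at 1 base before the start.
Slc1a4: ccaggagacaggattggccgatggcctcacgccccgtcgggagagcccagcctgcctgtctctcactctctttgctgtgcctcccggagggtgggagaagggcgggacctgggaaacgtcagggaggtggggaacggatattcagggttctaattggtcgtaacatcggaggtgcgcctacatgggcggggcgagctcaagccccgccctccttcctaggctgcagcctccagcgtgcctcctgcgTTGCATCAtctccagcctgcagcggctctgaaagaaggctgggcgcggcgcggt
Slc7a7: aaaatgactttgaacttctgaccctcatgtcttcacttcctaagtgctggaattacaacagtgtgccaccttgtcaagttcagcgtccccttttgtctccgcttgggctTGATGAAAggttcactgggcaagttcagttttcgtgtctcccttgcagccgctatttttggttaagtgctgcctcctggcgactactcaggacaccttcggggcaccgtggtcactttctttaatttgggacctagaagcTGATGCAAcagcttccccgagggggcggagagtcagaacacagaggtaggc
The E-box lies 64 bases before the start in Slc43a1 (chr2:84840073-84840372, plus strand) and 34 bases before it in Slc38a7 (chr8:95853442-95853741, minus strand).
Slc43a1: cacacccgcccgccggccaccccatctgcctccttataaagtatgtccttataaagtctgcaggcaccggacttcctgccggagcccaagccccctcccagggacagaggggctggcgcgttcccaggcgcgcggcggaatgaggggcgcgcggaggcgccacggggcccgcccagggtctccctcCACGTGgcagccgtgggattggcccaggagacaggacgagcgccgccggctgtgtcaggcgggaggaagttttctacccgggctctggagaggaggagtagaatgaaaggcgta
Slc38a7: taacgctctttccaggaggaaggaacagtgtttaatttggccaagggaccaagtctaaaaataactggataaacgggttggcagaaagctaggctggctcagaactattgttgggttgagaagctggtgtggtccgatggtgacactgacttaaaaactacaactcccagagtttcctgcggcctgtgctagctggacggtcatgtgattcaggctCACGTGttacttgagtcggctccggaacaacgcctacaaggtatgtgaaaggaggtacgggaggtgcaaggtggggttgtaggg
The HNF4 motif lies 39 bases before the start in Slc3a1 (chr17:85028097-85028396, plus strand).
Slc3a1: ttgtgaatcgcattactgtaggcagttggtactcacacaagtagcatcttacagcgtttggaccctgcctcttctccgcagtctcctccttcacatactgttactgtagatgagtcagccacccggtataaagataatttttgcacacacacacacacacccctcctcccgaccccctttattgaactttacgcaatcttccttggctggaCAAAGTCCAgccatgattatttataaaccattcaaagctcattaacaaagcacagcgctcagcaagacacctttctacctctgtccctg
By edgeR, Slc1a4 was higher and Slc7a7 lower in Ctnnb1-ex3 organoids, so the called carriers with TGATGNAA did not share a direction. Slc43a1 and Slc38a7 were both higher, but they were printed because they were called. The other tested symbols with the E-box were not called, with log2 fold changes of -0.096 for Slc1a7, 0.37 for Slc36a1 and -0.17 for Slc7a14.

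In the knockdown experiment, 15 of the 64 human symbols were called, about as often as other genes. Of the 64, 35 passed the filter and 29, with at most 17.4 estimated counts in any library, did not. By edgeR, 10 of the 35 were higher and 5 lower in sh-Prmt1 libraries, and 20 were not called. The called share of 42.9% is near the 41.0% of all 18447 genes tested, of which 20.6% were higher and 20.4% lower, so it is not a result about the carriers. The median log2 fold change was 0.13 over the 35 and 0.03 over all genes tested, and the groups did not overlap in 26 of the 35, beside 71.1% of all genes tested. The summed level of the 64 symbols was 1090 and 1119 CPM in sh-Prmt1 libraries, against 1118 and 1150 CPM in sh-scramble libraries. In the authors' deposited table, 8 of the 64 were higher and 3 lower at an adjusted p under 0.05, among 5906 genes called of 13991 with a p-value. The 15 calls kept their direction under all 11 alternatives, and SLC1A1, SLC38A10, SLC38A4, SLC38A7, SLC6A9, SLC7A5, SLC7A6 and SLC7A7 also kept an adjusted p under 0.05. Without sh-Prmt1 replicate 1, 3 symbols were called lower.

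**Figure D5:**
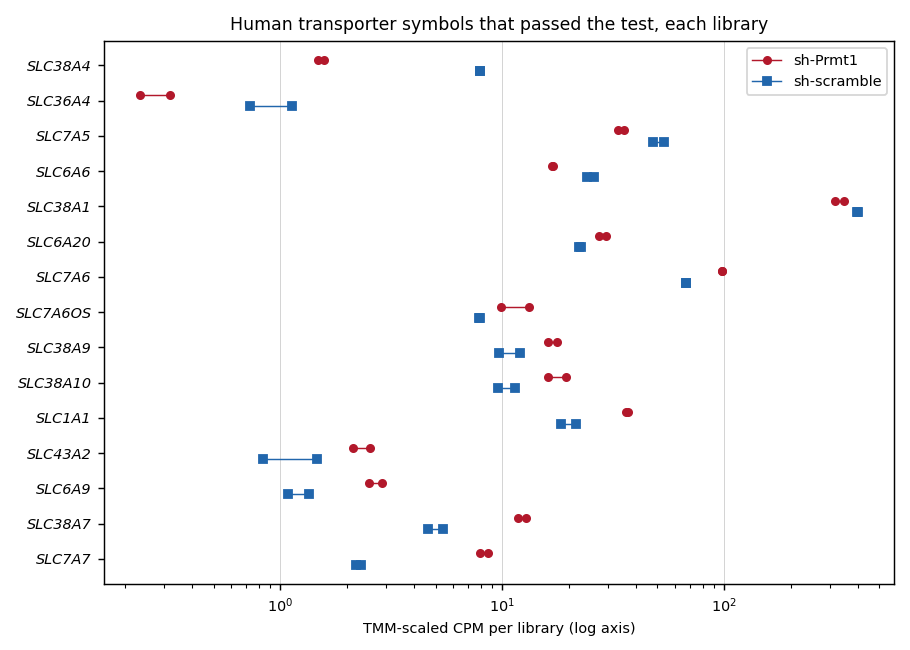
TMM-scaled CPM on a log axis for the 15 human symbols that passed the test, from the most lowered at the top to the most raised at the bottom. Red circles are the 2 sh-Prmt1 libraries and blue squares the 2 sh-scramble libraries, joined by a line within each group. The symbols were chosen by the test, and no symbol shown has overlapping groups. Of all genes tested, 71.1% had groups without overlap.

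The brush-border carriers were mostly too low to test in the knockdown libraries: SLC6A19, SLC6A14, SLC6A18 and SLC7A9 had at most 10 estimated counts in any library. SLC6A20, the imino acid carrier, had 27.2 and 29.2 CPM in sh-Prmt1 libraries, against 22.7 and 22.1 CPM in sh-scramble libraries (log2 fold change 0.33 ± 0.09, edgeR adjusted p = 0.0163). That call was lost without sh-Prmt1 replicate 2 (0.26), sh-scramble replicate 1 (0.30) or sh-scramble replicate 2 (0.29). SLC15A1 had 3.50 and 3.72 CPM in sh-Prmt1 libraries and 3.53 and 3.80 CPM in sh-scramble libraries, a difference within the spread of replicates (edgeR adjusted p = 0.936). SLC3A1 was at 3.81 and 3.89 CPM in sh-Prmt1 libraries and 3.69 and 3.11 CPM in sh-scramble libraries (edgeR adjusted p = 0.458).

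SLC7A7 was the most raised carrier. It had 8.60 and 7.94 CPM in sh-Prmt1 libraries, against 2.18 and 2.31 CPM in sh-scramble libraries, and was 3.67-fold higher in sh-Prmt1 libraries (log2 fold change 1.88 ± 0.16, edgeR adjusted p = 2.55e-05). SLC7A6 had 97.7 and 97.9 CPM in sh-Prmt1 libraries, against 67.1 and 67.4 CPM in sh-scramble libraries (log2 fold change 0.54 ± 0.08, edgeR adjusted p = 0.000588). SLC7A5 was lower, at 35.3 and 33.1 CPM in sh-Prmt1 libraries, against 47.7 and 53.7 CPM in sh-scramble libraries (log2 fold change -0.57 ± 0.09, edgeR adjusted p = 0.000983). Replicates of all 3 light chains lay close together and the groups did not overlap, the latter being true of 71.1% of all genes tested. In TPM, SLC7A5 made up 34.3% and 34.3% of the sum of the 4 light chains in sh-Prmt1 libraries, against 49.99% and 55.4% in sh-scramble libraries, and SLC7A7 made up 11.5% and 10.5% in sh-Prmt1 libraries, against 2.86% and 3.30% in sh-scramble libraries. Their heavy chain SLC3A2 had 80.8 and 70.1 CPM in sh-Prmt1 libraries and 68.5 and 68.2 CPM in sh-scramble libraries and was not called (log2 fold change 0.14, edgeR adjusted p = 0.258); SLC7A8 was not called (0.07, edgeR adjusted p = 0.724). The annotation also lists SLC7A5 pseudogenes and an SLC6A6 pseudogene, so the values of SLC7A5 and SLC6A6 are uncertain where reads match both copies. SLC7A6OS, not a transporter, was higher (0.55 ± 0.16, edgeR adjusted p = 0.0194), but not without sh-Prmt1 replicate 2 (0.30).

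The SLC38 family held the most lowered carrier and several raised ones. SLC38A4 (SNAT4), a carrier of neutral and cationic amino acids known from the liver, had 1.57 and 1.48 CPM in sh-Prmt1 libraries, against 7.90 and 7.95 CPM in sh-scramble libraries. It was 5.21-fold lower in sh-Prmt1 libraries (log2 fold change -2.38 ± 0.17, edgeR adjusted p = 1.1e-05). SLC38A7 had 11.7 and 12.8 CPM in sh-Prmt1 libraries, against 5.39 and 4.60 CPM in sh-scramble libraries (log2 fold change 1.30 ± 0.14, edgeR adjusted p = 9.47e-05). SLC38A10 had 19.2 and 16.1 CPM in sh-Prmt1 libraries, against 9.55 and 11.4 CPM in sh-scramble libraries (log2 fold change 0.75 ± 0.14, edgeR adjusted p = 0.00181). These 3 symbols had no overlap between groups. The same held for SLC38A9, SLC38A1 and the uncalled SLC38A2 and SLC38A6, and for 71.1% of all genes tested. SLC38A9 had 17.6 and 15.97 CPM in sh-Prmt1 libraries, against 9.63 and 11.96 CPM in sh-scramble libraries (log2 fold change 0.63 ± 0.13, edgeR adjusted p = 0.00404), but its call was lost with an offset for effective gene length (0.24, edgeR adjusted p = 0.151). SLC38A1 had 316 and 345 CPM in sh-Prmt1 libraries, against 398 and 402 CPM in sh-scramble libraries (log2 fold change -0.28 ± 0.09, edgeR adjusted p = 0.034), and was not called without sh-Prmt1 replicate 1 (-0.23) or sh-scramble replicate 2 (-0.29). SLC38A2 (-0.17) was not called (edgeR adjusted p = 0.167) except without sh-scramble replicate 1 (-0.30).

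The glutamate carrier SLC1A1 had 35.99 and 36.9 CPM in sh-Prmt1 libraries, against 18.3 and 21.5 CPM in sh-scramble libraries (log2 fold change 0.87 ± 0.10, edgeR adjusted p = 0.000143). SLC1A5 had 74.1 and 76.3 CPM in sh-Prmt1 libraries and 92.7 and 82.8 CPM in sh-scramble libraries, and SLC1A4 had 42.8 and 37.7 CPM in sh-Prmt1 libraries and 36.4 and 37.0 CPM in sh-scramble libraries. Neither was called (edgeR adjusted p = 0.0746 for SLC1A5 and 0.29 for SLC1A4), SLC1A5 being called only without sh-scramble replicate 2 (-0.32), and the arginine carrier SLC7A1 was not called either (0.07, edgeR adjusted p = 0.539). SLC6A6, the taurine carrier, had 16.7 and 16.9 CPM in sh-Prmt1 libraries, against 24.0 and 25.8 CPM in sh-scramble libraries (log2 fold change -0.57 ± 0.10, edgeR adjusted p = 0.00117), a call lost with the effective-length offset (-0.36, edgeR adjusted p = 0.134). SLC6A9, the glycine carrier, had 2.50 and 2.87 CPM in sh-Prmt1 libraries, against 1.08 and 1.34 CPM in sh-scramble libraries (log2 fold change 1.14 ± 0.24, edgeR adjusted p = 0.00438). SLC43A2 had 2.52 and 2.11 CPM in sh-Prmt1 libraries, against 0.836 and 1.46 CPM in sh-scramble libraries (log2 fold change 0.997 ± 0.30, edgeR adjusted p = 0.025). SLC36A4, a proton-coupled carrier, had 0.234 and 0.317 CPM in sh-Prmt1 libraries, against 0.728 and 1.13 CPM in sh-scramble libraries (log2 fold change -1.74 ± 0.45, edgeR adjusted p = 0.0117). Both calls were lost in leave-one-out fits: SLC43A2 was not called without sh-Prmt1 replicate 1 (0.86), sh-Prmt1 replicate 2 (1.10) or sh-scramble replicate 1 (0.61), nor SLC36A4 without sh-Prmt1 replicate 1 (-1.56) or sh-scramble replicate 2 (-1.40). SLC43A1 (0.16) and SLC36A1 (0.13) were not called, and SLC43A3 and SLC7A2 were under the filter.

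Of 11 partners and supports, 9 were tested in the knockdown libraries and 5 were higher in sh-Prmt1 libraries; without sh-Prmt1 replicate 2, 1 was called lower. Over all genes tested there, 20.6% were higher and 20.4% lower. DPEP1, a brush-border dipeptidase, had 9.74 and 7.70 CPM in sh-Prmt1 libraries, against 2.43 and 2.59 CPM in sh-scramble libraries (log2 fold change 1.79 ± 0.17, edgeR adjusted p = 5.38e-05). The aminopeptidase ANPEP was also higher (1.74 ± 0.33, edgeR adjusted p = 0.00233). Of 10 enterocyte markers, 6 were tested, SI was higher (2.48 ± 0.37, edgeR adjusted p = 0.000617) and FABP1 lower (-0.46 ± 0.10, edgeR adjusted p = 0.00534). The sum of all 10 was 5759 and 5865 CPM in sh-Prmt1 libraries, against 7579 and 8243 CPM in sh-scramble libraries, most of it FABP1; without FABP1 it was 372 and 386 CPM in sh-Prmt1 libraries, against 406 and 438 CPM in sh-scramble libraries, and APOA4 was at 0 in 1 library of each group. The leukocyte markers summed to 2.48 and 2.48 CPM in sh-Prmt1 libraries, against 2.64 and 2.97 CPM in sh-scramble libraries, with GZMA at 0 in all. Of 6 crypt base stem cell genes, 5 were tested, with 0 higher and 2 lower (LGR5 and SMOC2, edgeR). These 6 genes summed to 188 and 191 CPM in sh-Prmt1 libraries, against 201 and 202.5 CPM in sh-scramble libraries. Among metabolic enzymes, 9 were higher and 3 lower of 20 tested, ASS1 being higher (1.19 ± 0.09, edgeR adjusted p = 1.54e-05) and ASNS lower (-0.55 ± 0.10, edgeR adjusted p = 0.0019). Without sh-scramble replicate 1, 5 were higher. Of the 32 sensing genes, 9 were higher and 6 lower.

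Both experiments listed 62 symbols in common and share no samples. Slc7a6, Slc38a7 and Slc38a10 were higher in both, in Ctnnb1-ex3 organoids and in sh-Prmt1 libraries, and Slc6a6 was lower in both. Slc7a5 and Slc38a1 were higher in Ctnnb1-ex3 organoids and lower in sh-Prmt1 libraries, and Slc7a7, Slc1a1 and Slc43a2 were lower in Ctnnb1-ex3 organoids and higher in sh-Prmt1 libraries. The log2 fold changes of Slc7a7 were -2.03 by genotype and 1.88 by knockdown, and those of Slc7a5 1.82 and -0.57. A further 19 symbols were under the filter in both. The species, the cultures and the depths of the experiments differ, and the difference between them was not tested.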

How the data were processed

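For the genotype experiment the authors deposited whole-number counts per mouse gene symbol; the lowest value was 1, at which 861 genes stood in all 4 libraries, so 1 may have been added to every count. The knockdown files deposited by the authors are Salmon output per gene, per the file headers, with estimated counts and TPM, a transcript abundance scaled per length and library. The submitters' processing notes name mm10, Salmon and DESeq2 without roles; the sources used here give no other steps. The authors' deposited tables also give log2 fold changes and adjusted p-values.

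Here, groups came from the sample titles, and human Y-linked genes and XIST (211 identifiers) were left out. Separate fits were made for the experiments in edgeR 4.0.16 (R 4.3.3) with TMM factors and filterByExpr. Its two-sided quasi-likelihood test was run on the counts, or on estimated counts rounded to whole numbers, and p-values were adjusted by Benjamini-Hochberg over every gene tested. Adjusted p always means this value, with a threshold of 0.05 and n = 2 libraries per group. The biological coefficient of variation was 0.171 for genotype and 0.105 for knockdown. Within every group the replicates differed beyond counting noise (chi-square over degrees of freedom 3.98 to 31.5). Levels per kilobase used exon lengths of GENCODE vM21 (GRCm38).

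Alternatives were RLE and upper-quartile factors, no filter, DESeq2 1.42.0, limma-voom (limma 3.58.1), the replicate number as a block, each library left out, 1 taken from every count (genotype), an effective-length offset (knockdown) and an offset for read density (genotype, chosen after seeing the data). The fitting was tested on simulated counts. The members and gene lists were chosen with earlier results of these data known. Named with values were all called members and a fixed list of carriers; members under the filter are given by name or count. Partners, metabolic enzymes, promoters and the uncalled Slc15a2, Slc15a4, Slc6a18, Slc6a20b and Slc6a9 were chosen after their values were seen. Some genes of these lists are not reported here by name.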

Additional observations from a re-analysis of the deposited data

How the results depend on the processing

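With 2 libraries per group, leaving out 1 library moved the genotype counts most: over those fits between 5 and 17 carriers were called higher and between 11 and 18 lower, and the median log2 fold change of tested carriers ran from 0.049 to 0.16. That median was 0.40 with upper-quartile factors, which moved the median of all genes to 0.26, 0.24 without the low-count filter and -0.24 with the read-density offset, where 7 carriers were called higher. In the knockdown libraries, between 3 and 7 carriers were called lower over the leave-one-out fits. Without the filter, the median of all knockdown genes was 0.31. The causes were not tested. Only uncalled carriers changed sign. Slc38a9 had 0.23 with upper-quartile factors, 0.026 without the filter and between -0.15 and 0.13 over the leave-one-out fits. Over the same fits Slc36a1 ran from -0.25 to 0.77, SLC15A1 from -0.12 to 0.014, SLC7A8 from -0.0079 to 0.11 and SLC43A1 from -0.020 to 0.29; SLC15A1 was also at 0.0070 without sh-Prmt1 replicate 1, and Slc38a9 at 0.10 without Ctnnb1-ex3 replicate 2. SLC3A1 had -0.095 with the effective-length offset. With the read-density offset, Slc15a4 had -0.12 and Slc6a18 -0.53; over the leave-one-out fits, Slc6a18 ran from -0.073 to 0.22 and Slc15a2 from -0.10 to 2.07. Slc6a9 was called with RLE factors (-0.83), limma-voom (-0.81) and the read-density offset (-1.22), and Slc7a1 with upper-quartile factors (0.48). Other settings ended calls near the threshold: upper-quartile factors those of Slc38a2, Slc3a2, Slc43a2 and Slc7a15, DESeq2 those of Slc38a7, Slc38a10, SLC43A2 and SLC6A20, no filter those of Slc38a7, Slc38a10 and SLC6A20, limma-voom those of Slc43a2 and Slc7a15, taking 1 from every count that of Slc7a15, and the effective-length offset those of SLC38A9, SLC6A6 and SLC7A6OS.

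Same-numbered libraries share only a number in the labels (correlation of their deviations 0.0706 for genotype and -0.0513 for knockdown). With the replicate block, 12 carriers were higher and 16 lower by genotype, and 10 higher and 6 lower by knockdown; the median log2 fold changes were 0.16 and 0.13. Of the 23 mouse symbols under the filter, Slc6a3, the dopamine carrier, with 3 and 2 counts in Ctnnb1-ex3 libraries, against 24 and 7 in WT libraries, was called lower when no filter was used (-3.04, edgeR adjusted p = 0.0130). For the other 22 mouse symbols and 28 of the 29 human symbols, no difference was detectable at this depth. SLC15A5, with 0 estimated counts in every knockdown library, was not fitted.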
